A study of Mus musculus with 3 samples.

Results

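The RNAs described here are those of 10 genes of MHC class I antigen presentation, measured in apoptotic bodies (ABs) of the osteoclast lineage. They were chosen by name, and their reads were summed over every transcript listed for the gene in the table of mRNAs. That table covers 15861 genes, and none of the 10 was missing from it. They are the class I heavy chains H2-K1 and H2-D1 with their light chain B2m, the peptide transporter subunits Tap1 and Tap2 with tapasin (Tapbp), the immunoproteasome subunits Psmb8, Psmb9 and Psmb10, and the transactivator Nlrc5.

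The study profiled the RNA of ABs by RNA-seq at successive stages of osteoclastogenesis, with 1 library per stage. BMM-ABs came from bone marrow macrophages of 11-week-old male C57BL/6 mice, grown from marrow with M-CSF at 50 ng/ml for 72 h and given no RANKL. For pOC-ABs, the parent preosteoclasts had received RANKL at 100 ng/ml with M-CSF at 30 ng/ml for 24 h, and for mOC-ABs the mature osteoclasts had received the same factors for 72 h or longer. The labels state that ABs of each stage were induced with alendronate (500 μM, 12 h), whereas the paper names staurosporine and a longer RANKL culture for mOCs. The paper also gives a shorter induction, a shorter M-CSF step for the macrophages and, in its differentiation assay, more M-CSF beside RANKL. The sample titles name the cells, but the description of the series speaks of ABs, and each library was taken as one of ABs. The comparisons are those of the study, pOC-ABs against BMM-ABs (G1), mOC-ABs against BMM-ABs (G2) and mOC-ABs against pOC-ABs (G3), and each library enters a pair of them, so they are not independent. Whether animals were pooled is not given in the sources used here.

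MHC class I molecules display peptides from inside the cell to CD8+ T cells. The peptides are cut by the proteasome, whose catalytic subunits are exchanged for those of the immunoproteasome under interferon. They are carried into the endoplasmic reticulum by the TAP1-TAP2 transporter and loaded, with the help of tapasin, onto a heavy chain paired with β2-microglobulin. NLRC5 is a transcriptional coactivator of MHC class I genes. Macrophages express the pathway and act as antigen-presenting cells, and osteoclasts arise from the same precursors under M-CSF and RANKL.

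The table of mRNAs held 9100082 BMM-AB reads, 7387317 pOC-AB reads and 7705592 mOC-AB reads, and 3 reads correspond to 0.330, 0.406 and 0.389 RPM (reads per 1000000 reads of the mRNA table). Where 3 values follow each other without a library named, their order is macrophage, preosteoclast and mature osteoclast ABs. Since there is 1 library per stage, no difference could be set against a spread between replicates and no test was made. The 95% intervals are exact Clopper-Pearson for ratios, exact Poisson for levels and Wilson for shares. For changes of the ratio of 2 genes they are exact conditional. All are computed from read counts and cover counting error only. No molecular identifiers are described in the sources used here, so PCR copies of a molecule would count as separate reads. Of the osteoclast markers, 9 of 10 were analysed, and their sum was 345, 581 and 1870 RPM (BMM-, pOC- and mOC-ABs), although the integrin subunit Itgb3 had 6, 3 and 0 reads. All 8 macrophage markers were analysed and summed to 5774, 2764 and 1795 RPM, with Mrc1 (10, 2 and 1 reads) and Mertk (0, 2 and 5 reads) at or near 0. The summed markers of T cells (1 of 6 analysed), B cells (3 of 5), dendritic cells (3 of 6) and stromal cells (3 of 5) stayed at or below 3.76 RPM in each library. Those of neutrophils and erythroid cells were not analysed here.

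The RNAs of class I presentation were lower in mOC-ABs than in BMM-ABs for 9 of the 10 genes, with Psmb10 as the exception. Together the genes had 1057 RPM for BMM-ABs, 838 for pOC-ABs and 674 for mOC-ABs. The background for G2 is that 54.6% of the 12713 genes with at least 20 reads had a ratio below 1 and 9.01% were more than 2-fold lower. More than 2-fold lower in G2 were Tap1 and Tap2, and none was more than 2-fold higher, where 4.15% of all genes were. Both lay close to the limit. Tap1 fell short of 2-fold with size factors (log2 ratio −0.98), the upper quartile (−0.95), a pseudocount (−0.95) or protein-coding transcripts alone (−0.97), and Tap2 with protein-coding transcripts alone (−0.90). The median log2 ratio of the 10 genes was −0.73, against −0.05 over all genes. The interval of the ratio lay below 1 for 8 of them, where it did for 31.7% of all genes, and spanned 1 for H2-K1 and Psmb10. Whether fewer ABs contained these RNAs or each AB contained less of them cannot be told apart. The summed macrophage markers were also lower in mOC-ABs than in BMM-ABs, and their part in this difference was not tested.

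In G1 the ratios went both ways. The 3 immunoproteasome subunits and B2m had ratios above 1, while the heavy chains, the transport and loading genes and Nlrc5 had ratios below 1. A ratio below 1 was thus found for 6 of 10 genes, close to the 51.5% of all genes that had one. Tap2 was more than 2-fold lower (6.06% of all genes were) and no gene was more than 2-fold higher (4.87%). The median log2 ratio was −0.24, against −0.02 over all genes. Intervals lay above 1 for 3 genes (26.1% of all genes), below 1 for 5 (30.3%) and spanned 1 for Tap1 and Psmb9. With the libraries scaled to mRNA and lncRNA reads together, 8 of 10 ratios were below 1 in G1, as B2m and Psmb9 then lay below 1. The summed macrophage markers were lower in pOC-ABs as well, and their part was not tested.

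In G3 the ratio was below 1 for 7 genes, where 54.4% of all genes had one. Psmb8 was more than 2-fold lower (6.86% of all genes were), and no gene was more than 2-fold higher (3.5%). The median log2 ratio was −0.31 against −0.05 over all genes, and H2-K1, Tap2 and Tapbp had the ratios above 1. Intervals lay above 1 for 0 genes (21.9% of all genes) and below 1 for 6 (27.2%). They spanned 1 for H2-K1, Tap2, Tapbp and Psmb10.

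**Figure D1:**
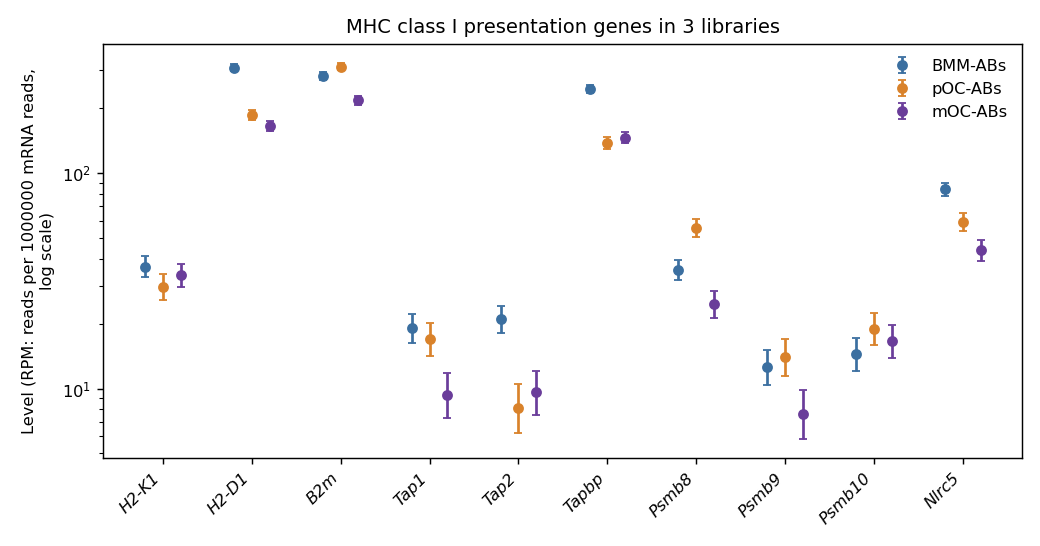
Level in RPM (log axis) of each gene in the 3 libraries, 1 for each stage, with bars for the exact Poisson 95% interval. H2-D1, Tapbp, Tap2 and Nlrc5 are highest in BMM-ABs with intervals apart from both other ABs, and Psmb8 is highest in pOC-ABs.

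**Figure D2:**
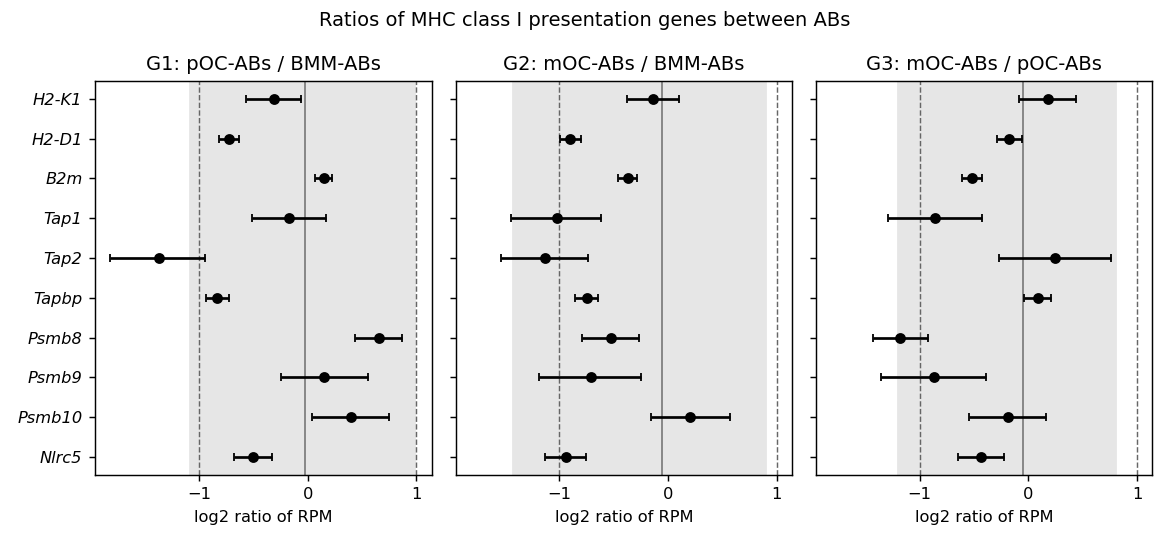
Log2 ratio of RPM of each gene in G1, G2 and G3, with bars for the exact 95% interval (counting error only). Dashed lines mark 2-fold, the grey band the 5th to 95th percentile of all genes and the solid line their median. In G1 the value of Tap2 lies left of the band, and in G2 9 of 10 points lie left of 0.

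By length-normalised level (FPKM), B2m was the most abundant of the 10 RNAs in each library, followed by H2-D1 and Tapbp, and Tap1 and Tap2 were the least abundant. B2m had 327 FPKM for BMM-ABs, 362 for pOC-ABs and 253 for mOC-ABs, which was 47.8, 70.7 and 90.6 times the level of the lowest gene of that library. The middle of the order differed between ABs. In BMM-ABs it ran H2-K1 (27.6 FPKM), Nlrc5 (22.2), Psmb8 (21.5), Psmb10 (11.4) and Psmb9 (9.71). In pOC-ABs Psmb8 followed Tapbp with 34.1 FPKM, before H2-K1 (21.1), Nlrc5 (16.4), Psmb10 (16.2) and Psmb9 (10.8). In mOC-ABs H2-K1 (22.4 FPKM) was followed by Psmb10 and Psmb8 (both 15.0), Nlrc5 (11.4) and Psmb9 (5.45). Without replicates, the order of close neighbours such as Nlrc5 and Psmb8 in BMM-ABs, Nlrc5 and Psmb10 in pOC-ABs, Psmb10 and Psmb8 in mOC-ABs, or Tap1 and Tap2 in each library, has no measured spread behind it.

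H2-K1 and H2-D1 are the classical heavy chains of the C57BL/6 haplotype and lie on chromosome 17 of GRCm38 (H2-K1 from 33996017 to 34000347 on the minus strand, H2-D1 from 35262730 to 35267499 on the plus strand). They are close paralogs. The coding sequences of their main transcripts were identical at 88.3% of aligned positions. The longest run of identical coding bases was 91 bases in exon 4, the exon of the α3 domain that contacts CD8. It is shown because a read lying inside it cannot be assigned to either gene, and it holds no capitals since the whole run is shared. It lies at chr17:33997343-33997433 on the minus strand in H2-K1 and at chr17:35265911-35266001 on the plus strand in H2-D1.
Shared run of H2-K1 and H2-D1: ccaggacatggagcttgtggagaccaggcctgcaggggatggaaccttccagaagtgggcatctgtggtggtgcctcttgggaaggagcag

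Over windows of 50 bases, 8.79% of those in the main H2-K1 transcript and 14.3% of those in that of H2-D1 also occurred in transcripts of other genes. Over windows of 100 bases the shares were 0% for H2-K1 and 4.64% for H2-D1, the latter mostly shared with H2-Q1. How the authors assigned such reads is not given in the sources used here.

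The heavy chains differed in how far they were below BMM-ABs. H2-D1 had 2805 BMM-AB reads, 1378 pOC-AB reads and 1274 mOC-AB reads, or 308, 187 and 165 RPM, with the BMM-ABs apart from both osteoclast-lineage ABs. It was 1.65-fold lower in G1 (log2 ratio −0.72, 95% interval −0.82 to −0.63) and 1.86-fold lower in G2 (−0.90, −0.995 to −0.80). Of all genes, 11.4% had a lower ratio in G1 and 10.7% in G2. H2-K1 had 335, 219 and 258 reads, or 36.8, 29.6 and 33.5 RPM, so its levels were close in the 3 ABs. Its log2 ratio was −0.31 in G1 (−0.56 to −0.06) and −0.14 in G2, where the interval spanned 0 (−0.38 to 0.10). The share of H2-K1 in the reads of both heavy chains was 10.7% in BMM-ABs (9.64 to 11.8), 13.7% in pOC-ABs (12.1 to 15.5) and 16.8% in mOC-ABs (15.1 to 18.8). This share does not depend on how the libraries are scaled. The ratio of H2-K1 to H2-D1 was higher in G2 by 0.76 on the log2 scale (0.50 to 1.02) and in G1 by 0.41 (0.14 to 0.68). The G1 value depends on the transcripts counted. In protein-coding transcripts alone, a setting added for this share after the values had been seen, H2-K1 held 9.67% in BMM-ABs (8.68 to 10.8), 8.15% in pOC-ABs (6.86 to 9.65) and 16.4% in mOC-ABs (14.6 to 18.3). The change of the ratio was then −0.27 in G1, with an interval that spanned 0 (−0.60 to 0.05), and 0.87 in G2 (0.60 to 1.14).

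B2m, on chromosome 2 from 122147686 to 122153083 on the plus strand, encodes β2-microglobulin, the light chain that stabilises class I heavy chains and their relatives. It had 2559, 2299 and 1675 reads (BMM-, pOC- and mOC-ABs), or 281, 311 and 217 RPM, the lowest being mOC-ABs. The log2 ratio was 0.15 (0.06 to 0.23) in G1, −0.37 (−0.46 to −0.28) in G2 and −0.52 (−0.61 to −0.43) in G3. With the libraries scaled to mRNA and lncRNA reads together, the G1 ratio of B2m was −0.053, so its direction in G1 depends on the scaling. The FPKM of B2m was 1.77 times that of H2-K1 and H2-D1 together for BMM-ABs, 3.08 times for pOC-ABs and 2.38 times for mOC-ABs. The light chain was thus in greater excess over its classical heavy chains in both osteoclast-lineage ABs, at the RNA level. B2m lies wholly within the interval of Patl2 on the opposite strand, and the counting is not stated to use strand. No window of 50 bases of its transcript occurred in the transcripts of other genes.

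Heavy and light chain genes are known to share promoter elements for NF-κB, interferon regulatory factors and the SXY factors to which NLRC5 is recruited. RefSeq promoter entries (GRCm38.p6) were found for 8 of the 10 genes, all but Tap2 and Nlrc5, and the 250 bases before each start were searched on both strands. GGGNNTTCC, the core of a κB motif, occurred in 4.98% of all 32851 promoters and in those of H2-K1 and H2-D1. The B2m window holds the run gggaaagtccc, which these letters do not match. The lack of a match in B2m thus does not show that it lacks a κB element. AANNGAAA, the core of an IRF motif, occurred in 21.3% of all promoters and in those of H2-K1, H2-D1 and B2m. The letters of both cores were set after these promoters had been read. TGACG, the core of the cAMP response element, was found in 17.8% of all promoters and in those of H2-K1, H2-D1, B2m, Tap1 and Psmb9. CCAAT occurred in 33.8% of all promoters and in the same 5 and Tapbp. For TGACG and for CCAAT, the Tap1 and Psmb9 matches are the same bases, read from opposite strands, since their promoters overlap. A match describes letters, not a bound site.

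The stretches shown are those that carry the κB letters (H2-K1 and H2-D1) or the IRF letters searched for, for comparison of heavy and light chain. B2m is given as the 250 bases at chr2:122147437-122147686 on the plus strand and H2-K1 as the 250 bases at chr17:34000348-34000597 on the minus strand, before the more upstream of its RefSeq starts. Of H2-D1, whose RefSeq start lies inside the first exon of its GENCODE main transcript, 30 bases around each match are given, at chr17:35262913-35262942 and chr17:35262933-35262962 on the plus strand. Capitals mark the κB and IRF matches, which do not overlap.
B2m: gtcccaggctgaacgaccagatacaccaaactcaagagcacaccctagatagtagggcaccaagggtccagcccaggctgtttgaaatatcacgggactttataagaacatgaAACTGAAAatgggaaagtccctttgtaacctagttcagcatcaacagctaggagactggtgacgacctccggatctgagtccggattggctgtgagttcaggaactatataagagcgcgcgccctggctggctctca
H2-K1: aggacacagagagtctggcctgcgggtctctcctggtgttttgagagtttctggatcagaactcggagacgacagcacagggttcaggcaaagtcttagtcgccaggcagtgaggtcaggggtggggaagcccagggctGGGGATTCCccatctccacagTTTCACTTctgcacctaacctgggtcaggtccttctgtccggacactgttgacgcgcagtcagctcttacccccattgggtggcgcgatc
H2-D1, κB: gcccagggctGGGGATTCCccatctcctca
H2-D1, IRF: catctcctcagTTTCACTTctgcacctaac

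H2-K1 and H2-D1 thus carry the same κB and IRF letters in the same order. In H2-K1 they lie at −111 to −103 and −90 to −83 from the start. In H2-D1 they lie at −171 to −163 and −150 to −143. Any part of these letters in the levels of the RNAs was not tested.

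Peptide transport and loading was the role with the lowest ratios, with a median log2 ratio of −0.83 in G1 and −1.02 in G2. Tap1 and Tap2 form the transporter and lie on chromosome 17 (Tap1 from 34187553 to 34197225, Tap2 from 34203527 to 34216321, both on the plus strand), and Tapbp bridges the transporter and the heavy chain (33915899 to 33929292 on chromosome 17, plus strand). Tapbp had 2225 BMM-AB reads, 1016 pOC-AB reads and 1123 mOC-AB reads, or 245, 138 and 146 RPM, so that both osteoclast-lineage ABs lay well below BMM-ABs and close to each other. It was 1.78-fold lower in G1 (log2 ratio −0.83, −0.94 to −0.72) and 1.68-fold lower in G2 (−0.75, −0.85 to −0.64), and its G3 interval spanned 0 (0.08, −0.04 to 0.21).

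Tap2 had 191, 60 and 74 reads (BMM-, pOC- and mOC-ABs), or 20.99, 8.12 and 9.60 RPM, again with BMM-ABs apart. It was 2.58-fold lower in G1 (log2 ratio −1.37, −1.81 to −0.94), with 2.82% of all genes below it, and 2.19-fold lower in G2 (−1.13, −1.54 to −0.73). In FPKM the G1 log2 ratio of Tap2 was −0.44, not past 2-fold. The short transcript Tap2-204, with 0, 7 and 0 reads, held 49.0% of the Tap2 FPKM in pOC-ABs. Tap1 had 173, 125 and 72 reads, or 19.0, 16.9 and 9.34 RPM, the lowest being mOC-ABs. Its log2 ratio was −0.17 (−0.51 to 0.17) in G1, −1.02 (−1.44 to −0.62) in G2 and −0.86 (−1.30 to −0.43) in G3, so it was 2.03-fold lower in mOC-ABs than in BMM-ABs.

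The balance of the transporter subunits in reads was different in pOC-ABs. Tap1 held 47.5% of the reads of the pair in BMM-ABs (42.4 to 52.7), 67.6% in pOC-ABs (60.5 to 73.9) and 49.3% in mOC-ABs (41.3 to 57.3). By FPKM its share was 49.6%, 50.8% and 52.9%, without the higher value in pOC-ABs, so the shift of the pair depends on whether reads or FPKM are compared. In protein-coding transcripts alone the share of reads was 44.7% (39.2 to 50.5), 57.4% (48.0 to 66.3) and 43.5% (35.3 to 52.1). Tap2 shares 12.6% of its windows of 50 bases with other genes, mainly its antisense neighbour Gm15821, and Tapbp 21.02%, mainly its antisense neighbour Gm19412. Reads in those parts cannot be assigned without strand.

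The immunoproteasome subunits were the one role with a median log2 ratio above 0 in G1 (0.40), and they were lower in G3 (median −0.86). Psmb8, Psmb9 and Psmb10 encode β5i, β1i and β2i, which replace Psmb5, Psmb6 and Psmb7. Psmb8 (chromosome 17, 34197721 to 34201454, plus strand) had 323 BMM-AB reads, 412 pOC-AB reads and 190 mOC-AB reads, or 35.5, 55.8 and 24.7 RPM, with intervals that did not overlap between the 3 ABs. It was 1.57-fold higher in G1 (log2 ratio 0.65, 0.44 to 0.87), with 88.4% of all genes below it. It was lower in G2 (−0.53, −0.79 to −0.26) and 2.26-fold lower in G3 (−1.18, −1.43 to −0.93), where 5.19% of all genes lay below it. The antisense gene Gm20496 overlaps Psmb8 over 2139 bases, and reads there cannot be assigned without strand.

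Psmb9 (chromosome 17, 34181987 to 34187764, minus strand) had 114, 103 and 59 reads, or 12.5, 13.9 and 7.66 RPM, and was lowest in mOC-ABs. The log2 ratio was 0.15 (−0.24 to 0.55) in G1, −0.71 (−1.19 to −0.24) in G2 and −0.86 (−1.35 to −0.39) in G3. Psmb9 and Tap1 overlap head to head by 212 bases on opposite strands, and 12.5% of the Psmb9 windows of 50 bases occur in Tap1. Psmb10 (chromosome 8, 105935735 to 105938444, minus strand) had 131, 140 and 128 reads, or 14.4, 19.0 and 16.6 RPM, close in the 3 ABs. Its log2 ratio was 0.40 (0.04 to 0.75) in G1, 0.21 (−0.16 to 0.57) in G2 and −0.19 (−0.55 to 0.17) in G3.

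Set against the constitutive subunits, the immunoproteasome share of the RNA was lower in mOC-ABs than in BMM-ABs beyond counting error for Psmb8 and Psmb9. Psmb8 held 46.2% of the reads of Psmb8 and Psmb5 in BMM-ABs (42.5 to 49.9), 45.5% in pOC-ABs (42.3 to 48.8) and 30.7% in mOC-ABs (27.2 to 34.4). The ratio of Psmb8 to Psmb5 changed in G2 by −0.96 on the log2 scale (−1.29 to −0.62). For Psmb9 against Psmb6 the share was 5.33% (4.45 to 6.36), 4.14% (3.43 to 5.00) and 3.54% (2.76 to 4.54), and the ratio changed by −0.62 in G2 (−1.10 to −0.14), while the changes in G1 (−0.38, −0.79 to 0.03) and G3 (−0.23, −0.73 to 0.25) had intervals that spanned 0. For Psmb10 against Psmb7 it was 13.0% (11.0 to 15.2), 12.1% (10.4 to 14.2) and 11.4% (9.70 to 13.4), with a change of −0.21 in G2 (−0.60 to 0.18). In protein-coding transcripts alone that change was −0.65 (−1.09 to −0.22), so for Psmb10 it depends on the transcripts counted. The constitutive Psmb5, Psmb6 and Psmb7 also had ratios above 1 in G1, at 0.69, 0.53 and 0.51 on the log2 scale. Over all 6 catalytic subunits the immunoproteasome share was 14.8% in BMM-ABs (13.7 to 15.9), 14.4% in pOC-ABs (13.4 to 15.5) and 11.1% in mOC-ABs (10.1 to 12.2). These shares of reads are compared between libraries and are not per length. By FPKM the share of Psmb8 in its pair was 31.6%, 31.0% and 19.1%.

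**Figure D3:**
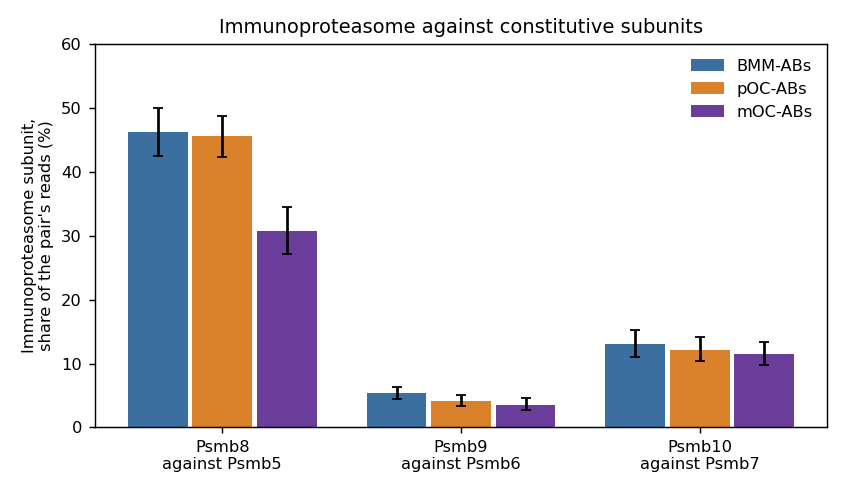
Share of each immunoproteasome subunit in the reads of the pair it forms with the constitutive subunit it replaces (%), by library, with Wilson 95% intervals. Psmb8 is at 46.2% for BMM-ABs, 45.5% for pOC-ABs and 30.7% for mOC-ABs, and the other pairs have overlapping intervals between neighbouring stages.

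Nlrc5 (chromosome 8, 94434356 to 94527272, plus strand) had 763 BMM-AB reads, 437 pOC-AB reads and 337 mOC-AB reads, or 83.8, 59.2 and 43.7 RPM, with intervals that did not overlap. The log2 ratio was −0.50 (−0.68 to −0.33) in G1, −0.94 (−1.13 to −0.75) in G2 and −0.44 (−0.65 to −0.23) in G3, and 9.92% of all genes had a lower ratio in G2. It was 1.92-fold lower in mOC-ABs than in BMM-ABs. Nlrc5, H2-D1 and Tap1 were the genes whose RPM were successively lower in pOC-ABs and mOC-ABs, though for Tap1 the intervals of BMM-ABs and pOC-ABs overlapped.

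For some of the 10 genes, the gene sums hide a different mixture of transcripts in pOC-ABs. Of the 48 listed transcripts of the 10 genes, 20 are annotated as protein-coding and 21 as retained introns, and the main transcript, the one with the most reads over the libraries, was protein-coding for each gene. A retained intron means that part of an intron is kept in the annotated transcript, which as a rule leaves it without an open reading frame for the full protein. H2-K1 was one such case. Its main transcript H2-K1-201 had 268 BMM-AB reads, 78 pOC-AB reads and 232 mOC-AB reads, which was 80.0%, 35.6% and 89.9% of the reads of the gene. The retained-intron transcript H2-K1-209, of 2 exons at the 3′ end of the gene, had 10, 92 and 4 reads. Retained introns together held 6.57% of the H2-K1 reads in BMM-ABs (4.38 to 9.74), 45.2% in pOC-ABs (38.8 to 51.8) and 4.26% in mOC-ABs (2.40 to 7.47). With protein-coding transcripts alone, the log2 ratio of H2-K1 was −1.002 in G1 and 0.98 in G3, against −0.31 and 0.18 for the gene sum. The smaller protein-coding H2-K1-206 had 17, 26 and 10 reads.

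Tap1 showed the same direction. Tap1-206, the main transcript, held 76.3%, 49.6% and 79.2% of the Tap1 reads (BMM-, pOC- and mOC-ABs), and retained introns 23.7% (18.0 to 30.6), 50.4% (41.8 to 59.0) and 20.8% (13.1 to 31.6). The retained-intron transcripts themselves differed. Tap1-204 had 0, 51 and 7 reads, at least 20.9-fold higher in G1 when set against 3 reads, Tap1-205 had 32, 9 and 0, and Tap1-202 had 5, 2 and 8. In protein-coding transcripts alone the log2 ratio of Tap1 was −0.79 in G1 and −0.18 in G3, against −0.17 and −0.86 for the gene sum, so the stage at which Tap1 was low depends on which transcripts are counted.

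The mixture of Tap2 differed in mOC-ABs, and that of Psmb10 in both osteoclast-lineage ABs. Tap2-201 had 163, 39 and 74 reads and was the one Tap2 transcript with reads in mOC-ABs, while the retained-intron Tap2-202 had 26, 13 and 0. Psmb10-201 had 124, 106 and 88 reads, or 94.7%, 75.7% and 68.8% of the gene, and the retained-intron Psmb10-206 had 1, 18 and 24. Retained introns of Psmb10 held 5.34% of its reads in BMM-ABs (2.61 to 10.6), 24.3% in pOC-ABs (17.9 to 32.0) and 28.9% in mOC-ABs (21.8 to 37.3). The antisense gene Gm16156 overlaps Psmb10 over 2710 bases, its whole length. The counting is not stated to use strand, so intron reads of Psmb10 may include antisense reads. In protein-coding transcripts alone the G2 log2 ratio of Psmb10 was −0.25 (−0.67 to 0.15) in place of 0.21, and both intervals spanned 0.

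Of the other genes, most had a steadier mixture, with Nlrc5 as the exception. B2m has 1 transcript, and H2-D1-202 held 97.6%, 97.0% and 98.0% of H2-D1, Tapbp-201 94.2%, 94.4% and 95.5% of Tapbp, and Psmb8-201 92.0%, 97.6% and 91.6% of Psmb8. Psmb9-204 held 83.3%, 80.6% and 84.7% of Psmb9, beside 10, 12 and 7 reads of the retained-intron Psmb9-201. Within Nlrc5, Nlrc5-207 held 70.1% (66.8 to 73.3), 65.9% (61.3 to 70.2) and 81.0% (76.5 to 84.8) and Nlrc5-201 12.1%, 11.4% and 11.0%. The shorter protein-coding Nlrc5-204 had 68, 70 and 1 reads, which was 8.91%, 16.0% and 0.297% of the gene. Over the 10 genes retained introns held 3.03%, 4.96% and 2.68% of the reads, against 5.80%, 4.94% and 4.39% over all protein-coding genes, so the group as a whole stood at the background in pOC-ABs and below it in the other ABs. H2-K1, Tap1 and Psmb10 were the genes whose retained-intron interval in pOC-ABs lay above that in BMM-ABs. The share of all genes with such a separation was not computed, so whether these genes stand out from others is not known. Single transcripts with few reads differ widely between libraries. Of the 28 transcripts of these genes with at least 20 reads, 3 were more than 2-fold higher and 6 lower in G1, where 36.3% of all such transcripts were past 2-fold in either direction. In G2 there were 2 higher and 9 lower (38.1% of all transcripts in either direction), and in G3 1 higher and 9 lower (35.7%). The tool that divided reads among transcripts is not given in the sources used here.

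**Figure D4:**
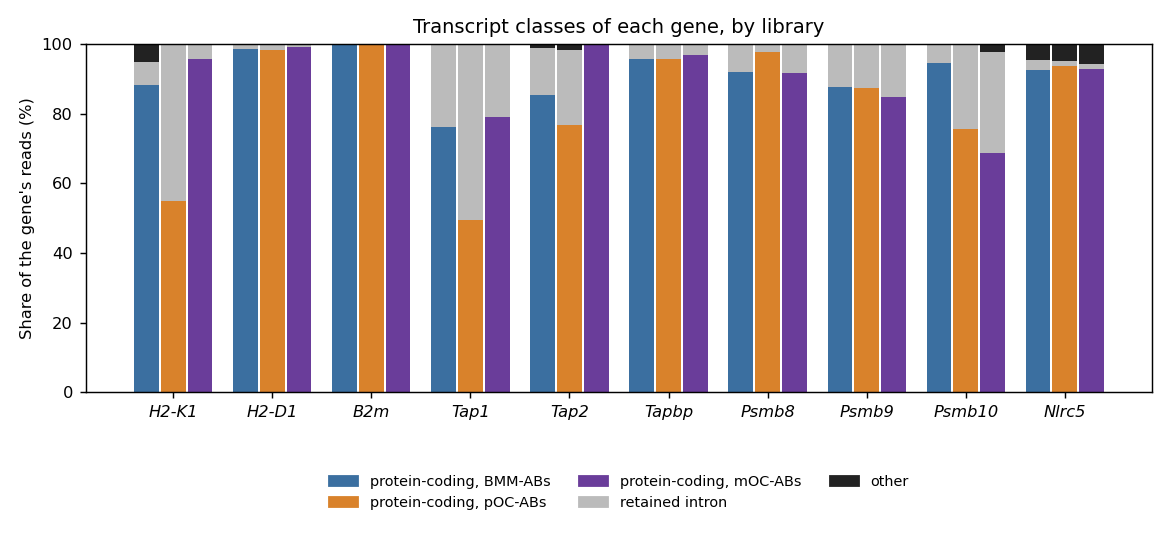
Share of the reads of each gene (%) on protein-coding transcripts (colour of the library), on retained-intron transcripts (grey) and on other transcripts (black), with BMM-, pOC- and mOC-ABs from left to right. H2-K1 and Tap1 have a grey part of 45.2% and 50.4% in pOC-ABs, and Psmb10 one of 24.3% and 28.9% in pOC-ABs and mOC-ABs.

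Other heavy chains of the class I family were lower in mOC-ABs as well. In G2 13 of 14 had a ratio below 1 (54.6% of all genes had), 8 were more than 2-fold lower (9.01% of all genes were) and the median log2 ratio was −1.07. In G1 12 had a ratio below 1 (51.5%) and 3 were more than 2-fold lower (6.06% of all genes were), with a median of −0.70. H2-Q4 had 382, 178 and 120 reads (log2 ratio −1.43 in G2, −1.74 to −1.13) and H2-Q6 237, 151 and 99 (−1.02, −1.37 to −0.68). These are nonclassical molecules of the Q region and share sequence with one another and with H2-D1. Hfe, which regulates iron uptake, had 146, 59 and 43 reads (−1.52, −2.05 to −1.02), Fcgrt, the heavy chain of the neonatal Fc receptor, 85, 40 and 25 (−1.53, −2.23 to −0.87), and Mr1, which presents vitamin B metabolites to MAIT cells, 113, 54 and 43 (−1.15, −1.70 to −0.64). H2-Q1 (82, 47 and 32 reads), H2-Q10 (30, 22 and 8) and H2-Q2 (17, 6 and 6) were also more than 2-fold lower in G2. H2-T23, which encodes Qa-1, had 348, 175 and 202 reads and a G2 log2 ratio of −0.54, and H2-T22 had 271, 229 and 183 and −0.33. H2-Q7, with 8, 3 and 9 reads, had the ratio above 1 in G2. On these few reads its log2 ratio was −1.11 in G1 (−3.66 to 0.94) and 1.52 in G3 (−0.48 to 4.05). In G3 12 of the 14 had a ratio below 1 (54.4% of all genes had), with a median of −0.45. H2-Q7 was the 1 gene more than 2-fold higher in G3 (3.5% of all genes were), and H2-Q10 the 1 more than 2-fold lower (6.86%). H2-L, H2-T3, H2-M2 and Cd1d1 were not analysed here.

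Of 12 other genes of peptide loading and trimming, 10 had a ratio below 1 in G1 and in G2 (51.5% and 54.6% of all genes had), with medians of −0.46 and −0.58. The chaperones Calr (4088, 2433 and 3055 reads), Canx (3576, 2194 and 2224) and Hspa5 (3515, 1589 and 1797) had log2 ratios of −0.45, −0.40 and −0.84 in G1. Ganab, the glucosidase that prepares glycoproteins for calnexin and calreticulin, had 1513, 599 and 823 reads and was the one gene of the list past 2-fold, at −1.04 in G1 (−1.17 to −0.90), where 6.06% of all genes were past 2-fold lower. These serve many glycoproteins of the endoplasmic reticulum, not class I alone.

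For the PA28 activator and the proteasome assembly genes, the ratio was above 1 for 6 of 6 in G1 (48.4% of all genes) and for 4 of 6 in G2 (45.4%), with medians of 0.26 and 0.16 and none past 2-fold. In G2 the interval spanned 1 for 4 of the 6. Psme3, the PA28γ subunit, had 1992, 1728 and 2130 reads (0.34 in G2, 0.25 to 0.43), while Psme1 had 585, 521 and 441 (−0.17, −0.35 to 0.01) and Pomp, the assembly factor, 418, 479 and 408 (0.21, 0.00 to 0.41).

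**Figure D5:**
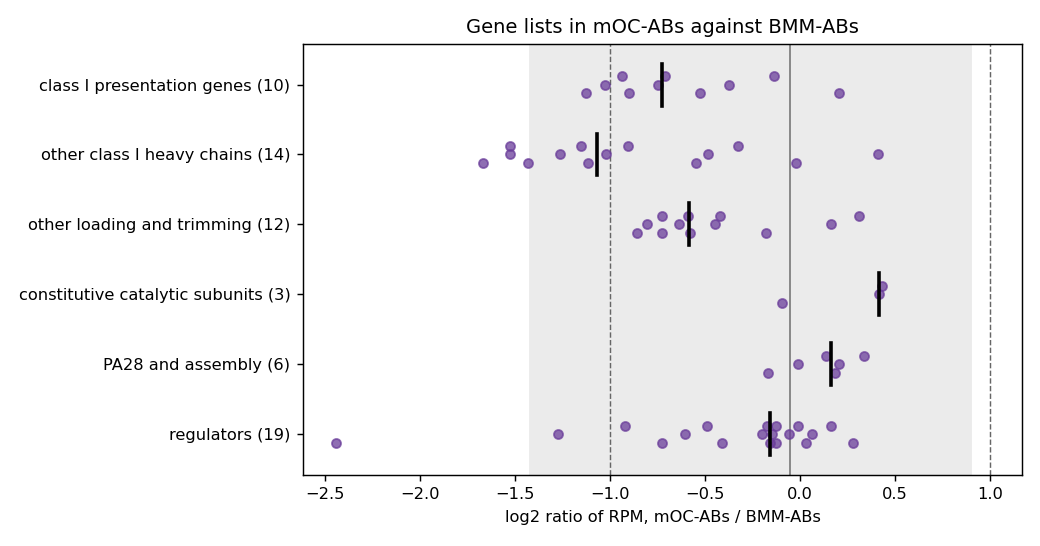
Log2 ratio of RPM in mOC-ABs against BMM-ABs for each gene (points) of 6 lists, with the median of each list (black bar), the 5th to 95th percentile of all genes (grey band), their median (grey line) and 2-fold (dashed lines). The medians are −0.73 for the class I presentation genes, −1.07 for other heavy chains, −0.58 for loading and trimming, 0.41 for the constitutive subunits, 0.16 for PA28 and assembly and −0.16 for regulators.

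Among 19 regulators of class I genes, 2 were more than 2-fold lower in G1 and in G2 (6.06% and 9.01% of all genes were), and the medians were −0.22 and −0.16. Irf8, a transcription factor of the macrophage lineage that represses osteoclast formation, had 1330 BMM-AB reads, 431 pOC-AB reads and 207 mOC-AB reads. Its log2 ratio was −1.32 (−1.48 to −1.17) in G1, −2.44 (−2.66 to −2.23) in G2 and −1.12 (−1.37 to −0.88) in G3. Ifngr1, the ligand-binding chain of the interferon-γ receptor, had 280, 97 and 98 reads (−1.23 in G1, −1.58 to −0.89, and −1.27 in G2, −1.62 to −0.94). Irf1, chosen for its role after its values had been seen, had 162, 109 and 123 reads, with a G2 log2 ratio of −0.16 (−0.51 to 0.19). The regulators with the most reads, Jak1 (1894, 1546 and 1591 reads), Nfkb1 (1524, 990 and 1167) and Tyk2 (1478, 904 and 1092), had G2 ratios of −0.01, −0.15 and −0.20.

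At the loci of the 10 genes, 22 lncRNAs of the lncRNA table overlapped 4 of them, B2m, H2-D1, Tapbp and Nlrc5, and 6 had at least 20 reads. NONMMUT039536.2 is an unspliced lncRNA of 1642 bases inside B2m (chromosome 2, 122147717 to 122149358), of which 88 bases are exonic in B2m. It had 167 BMM-AB reads, 238 pOC-AB reads and 56 mOC-AB reads, scaled here to mRNA reads. Its log2 ratio was 0.81 (0.52 to 1.11) in G1, −1.34 (−1.80 to −0.89) in G2 and −2.15 (−2.60 to −1.72) in G3. The lncRNA 9330175E14Rik, on the opposite strand across the start of Nlrc5, had 31, 0 and 0 reads. A longer entry whose interval spans it, NONMMUT131476.1, had 2, 1 and 14 reads. How reads were divided between these overlapping entries is not given in the sources used here. Unspliced and antisense reads of these loci cannot be told from those of the host gene without strand. None of the 1372 listed circRNAs had 1 of the 10 genes as its host.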

How the data were processed

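The authors deposited, for each transcript of a table of mRNAs and a table of lncRNAs, the read count in each library and the FPKM, which divides that count by transcript length and library total, and for each circRNA the junction read count and a normalised score (SRPBM). The submitters' processing notes name FastQC, HISAT2, StringTie and GRCm38, and the paper describes poly-T selected, paired-end libraries. The circRNA scores were not needed beyond their host genes. The counting tool, its use of strand and the circRNA caller are not given in the sources used here. Per-sample columns of the tables all belong to the 3 libraries.

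The gene of each transcript was taken from GENCODE M21, which held 56440 of the 56651 listed, and read counts were summed per gene, divided by the mRNA total of the library and compared as ratios without a pseudocount. A gene past 2-fold was called among genes with at least 20 reads over the libraries. This is the fold limit of the study, which also required an FDR-adjusted p-value. With 1 library per stage no p-value was computed. Sequences of promoters are from RefSeq (GRCm38.p6), and the windows shared between transcripts from GENCODE M21 transcripts. Some results on regulators and a motif that was searched are not reported here. The genes and lists were chosen with earlier results of these data known. Named are the 10 genes, their transcripts with at least 10% of the reads of the gene in any library, of every other list the 3 genes with the most reads and every gene past 2-fold with at least 20 reads, and the 5 genes with at least 1000 reads whose G1 and G2 ratios were closest to the medians of the 10 genes. Alternatives were mRNA and lncRNA totals, median-of-ratios size factors, the upper quartile (percentile 75), summed FPKM, a pseudocount of 1 RPM, protein-coding transcripts alone, transcript shares by FPKM, and no minimum or a minimum of 100 reads for the background. Shares of gene pairs in protein-coding transcripts alone were added after the data had been seen. Python 3.11.15, pandas 2.3.3, numpy 2.4.6, scipy 1.17.1 and matplotlib 3.10.9 were used.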

Additional observations from a re-analysis of the deposited data

How the results depend on the processing

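Scaling to mRNA and lncRNA reads together shifted every log2 ratio by −0.20 in G1, −0.10 in G2 and 0.10 in G3. It made 2 genes more than 2-fold lower in G1 (Tap2 and Tapbp) in place of 1 and turned the G1 ratio of B2m from 0.15 to −0.053. In G2, where 2 genes were past 2-fold, 1 was with size factors, 1 with the upper quartile, 1 with the pseudocount and 0 with protein-coding transcripts alone, while 3 were with mRNA and lncRNA totals (Nlrc5 at −1.04 added). In G1 0 were with summed FPKM, and 2 with protein-coding transcripts alone, which also moved the median log2 ratio of the 10 genes in G1 from −0.24 to −0.61. The count past 2-fold thus rests on values close to the limit. In protein-coding transcripts alone, the share of H2-K1 in the reads of both heavy chains in pOC-ABs was 8.15% in place of 13.7%, below that in BMM-ABs. Across these settings the median stayed below 0 in each comparison. Of single ratios that were not distinguished from 1 by counting error, Psmb10 in G2 was −0.25 with protein-coding transcripts alone and Tap2 in G3 was −0.88 with summed FPKM. With a minimum of 100 reads, 7.12%, 9.14% and 5.96% of all genes were past 2-fold in G1, G2 and G3, and with no minimum 19.3%, 21.5% and 19.3%. By FPKM, 15 of 30 shares of the main transcripts lay outside their counting interval, among them those of Nlrc5-207 (35.0%, 31.4% and 41.1%) and that of Tap2-201 in pOC-ABs (30.0%).

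Each stage is 1 library, so differences between cultures, between AB preparations and between stages cannot be told apart. No paired analysis was possible because no comparison has replicates, and leaving out a replicate was not possible for the same reason. Tap1, Tap2, Psmb9 and Psmb10 had fewer than 200 reads in each library, and the lowest, Psmb9 in mOC-ABs, had 59.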

Other observations

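Of the class II genes analysed, H2-Aa, H2-Eb1 and Ciita had few reads, while the invariant chain Cd74 and H2-DMa had more. Cd74, which guides class II molecules to the endosome, had 2486 BMM-AB reads, 1419 pOC-AB reads and 1767 mOC-AB reads, with log2 ratios of −0.51 in G1 (−0.60 to −0.41) and −0.25 in G2 (−0.34 to −0.16). The class II chain H2-Aa had 0, 0 and 3 reads and H2-Eb1 had 1, 0 and 20, so the reads of H2-Eb1 came from mOC-ABs with a G2 log2 ratio of 4.56 (1.92 to 9.94) on few reads. H2-DMa, the peptide editor of class II, had 105, 65 and 50 reads (−0.83 in G2, −1.35 to −0.33). Ciita, the class II counterpart of Nlrc5, had 23, 2 and 4 reads (−2.28 in G2, −4.28 to −0.73). H2-Ab1 and H2-DMb1 are not analysed here.

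The genes whose G1 and G2 log2 ratios lay closest to the medians of the 10 class I presentation genes (−0.24 and −0.73), among 5313 with at least 1000 reads, were Pigm, Rbmx, Dok2, Cdk14 and Zeb2. Pigm had 516, 348 and 259 reads (−0.27 and −0.75) and Rbmx 497, 338 and 259 (−0.26 and −0.70). Dok2, an adaptor that restrains signalling in haematopoietic cells, had 1037, 727 and 529 (−0.21 and −0.73), Cdk14 1649, 1156 and 860 (−0.21 and −0.70) and Zeb2 3556, 2388 and 1855 (−0.27 and −0.70). Within 0.1 of both medians lay 29 of these genes, and likeness over 3 libraries is a description of level alone.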
